A study of Mus musculus with 12 samples.

Results

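The interferon-stimulated genes described here are the 9 genes Ifit1, Ifit3, Isg15, Rsad2, Cmpk2, Irf7, Oasl2, Usp18 and Ifi44, found by symbol among the 25553 genes of an FPKM table of mouse kidney. All 9 had a row and all 9 passed the filter on low values that left 12357 genes. The study asked what repeated mild hypoxia before surgery changes in the injured kidney, with 4 groups of 3 wild-type mice, 12 libraries in all. Preconditioned RIRI mice spent 2 h, 4 h and 8 h in 8% oxygen on days 1, 2 and 3 in a normobaric chamber whose oxygen was lowered over 20 min, and then underwent renal ischemia-reperfusion injury (RIRI), with both pedicles clamped for 45 min and 12 h of blood flow after release. Normoxic RIRI mice had the same clamping without hypoxia, preconditioned sham mice had the hypoxia without RIRI, and normoxic sham mice had neither. Kidneys of every group were wild type and were labelled as 1 batch, with strain, sex and age not given in the sources used here.

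Interferons are cytokines that cells release when they sense viral or misplaced nucleic acid. Type I interferon binds IFNAR1 and IFNAR2, whose kinases JAK1 and TYK2 start a signal that ends in a complex with IRF9. That complex binds the interferon-stimulated response element (ISRE) in the promoters of its target genes and raises their transcription. Interferon gamma acts through another receptor, with guanylate-binding proteins and immunity-related GTPases among its best-known targets. In the kidney most cell types, tubular epithelium and endothelium included, can respond to interferon.

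The 9 genes lie on 7 chromosomes, by RefSeq on GRCm38.p6, the patched form of the mm10 build named in the submitters' processing notes. Ifit3 (chromosome 19, 34583119 to 34588982) and Ifit1 (chromosome 19, 34640889 to 34650009) are 51.9 kb apart on the same strand. Rsad2 (chromosome 12, 26442743 to 26456452) and Cmpk2 (chromosome 12, 26469117 to 26479837) point away from each other with 12.7 kb between them. The others are Ifi44 (chromosome 3, 151730922 to 151749910), Isg15 (chromosome 4, 156199424 to 156200818), Oasl2 (chromosome 5, 114896926 to 114912245), Usp18 (chromosome 6, 121245906 to 121270917) and Irf7 (chromosome 7, 141263183 to 141266499).

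Promoter windows of 300 bases, 250 before and 50 after the start site of the RefSeq table, were matched for 8 of the 9 genes, and Usp18 had no entry. Each was searched on both strands, overlaps allowed, for GAAANNGAAA, the repeated core of the ISRE. The letters were found in 4 of the 8 windows, in 25 of 53 windows (47.2%) of the other type I interferon-stimulated genes examined, and in 1131 of 32851 windows (3.44%) of all genes. The 4 windows that hold a match are printed to show the matches in their surroundings, and the capitals mark the matches. The window of Isg15 is chr4:156200769-156201068 (minus strand), that of Rsad2 chr12:26456403-26456702 (minus strand), that of Ifit3 chr19:34583279-34583578 (plus strand, from a start site inside the gene's full span) and that of Ifit1 chr19:34640639-34640938 (plus strand).
Isg15: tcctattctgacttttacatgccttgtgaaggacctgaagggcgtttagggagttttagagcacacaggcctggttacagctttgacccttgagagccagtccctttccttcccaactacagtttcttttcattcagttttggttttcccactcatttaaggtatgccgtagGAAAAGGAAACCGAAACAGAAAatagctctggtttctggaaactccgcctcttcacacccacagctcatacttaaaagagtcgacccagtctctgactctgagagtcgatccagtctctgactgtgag
Ifit1: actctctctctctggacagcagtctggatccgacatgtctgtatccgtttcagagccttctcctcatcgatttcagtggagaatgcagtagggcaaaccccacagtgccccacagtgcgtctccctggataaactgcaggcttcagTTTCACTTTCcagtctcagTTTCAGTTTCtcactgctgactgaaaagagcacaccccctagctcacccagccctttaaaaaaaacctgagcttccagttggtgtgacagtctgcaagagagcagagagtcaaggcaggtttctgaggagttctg
Ifit3: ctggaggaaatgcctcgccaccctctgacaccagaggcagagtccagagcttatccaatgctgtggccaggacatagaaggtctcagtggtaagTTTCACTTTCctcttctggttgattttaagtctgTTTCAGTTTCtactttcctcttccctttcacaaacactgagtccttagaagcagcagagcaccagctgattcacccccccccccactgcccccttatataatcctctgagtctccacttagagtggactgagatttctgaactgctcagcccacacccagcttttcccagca
Rsad2: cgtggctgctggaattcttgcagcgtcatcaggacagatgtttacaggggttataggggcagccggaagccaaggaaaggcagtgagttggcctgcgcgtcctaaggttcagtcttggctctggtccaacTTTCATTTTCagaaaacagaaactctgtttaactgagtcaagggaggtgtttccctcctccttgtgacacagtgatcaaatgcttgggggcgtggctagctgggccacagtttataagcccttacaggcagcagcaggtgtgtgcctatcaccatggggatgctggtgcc
Isg15 holds 3 overlapping matches that start 78, 72 and 66 bases before its start site and read as written. Ifit1 holds 2, at 104 and 85 bases before the start, and Ifit3 holds 2, at 156 and 122 bases before the start, all as the reverse complement. Rsad2 holds 1, at 120 bases before its start, also as the reverse complement. These exact letters were not in the windows of Irf7, Oasl2, Cmpk2 and Ifi44.

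Each library held 33096854 to 35707662 reads assigned to genes, as recovered from the steps of the FPKM values (fragments per kilobase of gene, scaled to library depth). The members had between 62 reads (Ifi44 in normoxic RIRI replicate 2) and 3479 reads (Irf7 in preconditioned sham replicate 1), and counting error alone gives an SD of 12.7% at the lowest. Kidney identity and injury matched the labels: the proximal tubule phosphate transporter gene Slc34a1 stood between 594 and 2150 FPKM in all libraries. The injury marker gene Lcn2 was at 526 to 890 FPKM in preconditioned RIRI, at 1560 to 3010 FPKM in normoxic RIRI and at 1.77 to 5.22 FPKM in the sham libraries. Genes were tested with limma on log2(FPKM + 1), with Benjamini-Hochberg adjustment over all 12357 genes, and a gene is called changed at an adjusted p under 0.05. Fold changes on this scale understate those of low genes. These are bulk kidneys, so fewer cells of a type and less RNA per cell cannot be told apart. The coding gene Ifit3b is 97.8% identical to Ifit3 over 1700 of 1745 transcript bases, and a processed pseudogene (AC151275.1) is 95.2% identical to Isg15 over 482 of 756 bases, so reads of these genes could be split and their levels are uncertain to that extent.

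Before any comparison, 3 libraries stood apart in the members. Preconditioned RIRI replicate 1 had the highest level of its group for all 9 genes, and preconditioned sham replicates 1 and 3 were above replicate 2 for all 9. The SD of log2(FPKM + 1) between the 3 kidneys of a group had a median over the members of 0.86 in preconditioned RIRI, against 0.12 for all tested genes in that group and 0.38 at their 95th percentile. In normoxic RIRI the members' median SD was 0.21, against 0.15 for all tested genes. It was 0.74 in preconditioned sham, against 0.08 for all tested genes with a 95th percentile of 0.28, and 0.13 in normoxic sham, against 0.08. The spread between kidneys was therefore large in both hypoxia-treated groups and near that of other genes in both normoxic groups. Results that rest on preconditioned RIRI replicate 1 are given below with and without it.

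**Figure D1:**
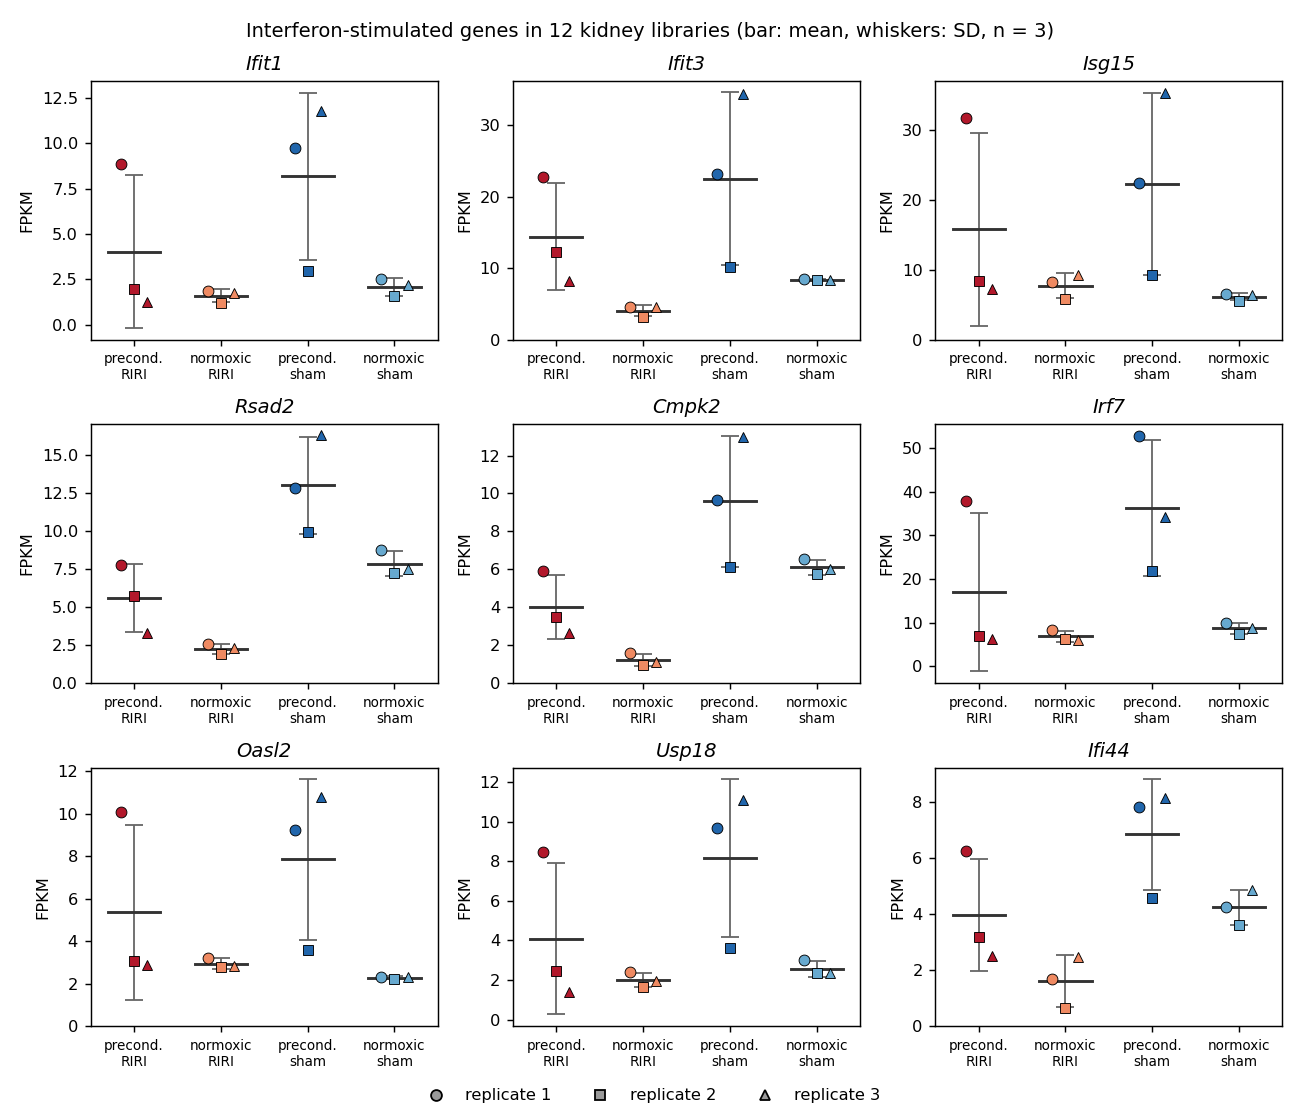
FPKM of the 9 interferon-stimulated genes (vertical axis, linear scale that differs between panels) in each of the 12 kidney libraries by group (horizontal axis), with the bar at the group mean and whiskers of 1 SD (n = 3). Preconditioned RIRI replicate 1 and preconditioned sham replicates 1 and 3 stand above the other replicates of their own groups, most plainly for Isg15 (31.7, 22.4 and 35.4 FPKM) and Irf7 (37.9, 52.7 and 34.1 FPKM), while Rsad2 and Cmpk2 also separate normoxic RIRI from all other groups.

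Ifit1 and Ifit3 encode tetratricopeptide proteins that bind viral RNA and hold back its translation. In the order of replicates 1, 2 and 3, Ifit1 had 8.88, 1.97 and 1.24 FPKM in preconditioned RIRI, 1.88, 1.18 and 1.74 in normoxic RIRI, 9.76, 2.98 and 11.8 in preconditioned sham, and 2.54, 1.56 and 2.17 in normoxic sham. Ifit3 had 22.8, 12.3 and 8.27 FPKM in preconditioned RIRI, 4.52, 3.11 and 4.50 in normoxic RIRI, 23.1, 10.2 and 34.3 in preconditioned sham, and 8.48, 8.31 and 8.38 in normoxic sham. For Ifit1 a single kidney lifted the preconditioned RIRI mean to 4.03 ± 4.21 FPKM (SD, n = 3), with replicate 3 inside the normoxic RIRI range and replicate 2 just above it. For Ifit3 all 3 preconditioned RIRI kidneys were above all 3 normoxic RIRI kidneys, and the normoxic RIRI kidneys were below every other library.

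Isg15 encodes a ubiquitin-like protein that is joined to other proteins in interferon-treated cells, and Usp18 the protease that takes it off again and also damps signalling at IFNAR2. Isg15 had 31.7, 8.38 and 7.21 FPKM in preconditioned RIRI, 8.21, 5.77 and 9.21 in normoxic RIRI, 22.4, 9.20 and 35.4 in preconditioned sham, and 6.55, 5.57 and 6.37 in normoxic sham. Usp18 had 8.46, 2.43 and 1.38 FPKM in preconditioned RIRI, 2.39, 1.64 and 1.97 in normoxic RIRI, 9.69, 3.63 and 11.1 in preconditioned sham, and 3.01, 2.33 and 2.34 in normoxic sham. In both genes replicates 2 and 3 of preconditioned RIRI lay among or beside the normoxic RIRI kidneys, and only replicate 1 stood clear of them.

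Rsad2 encodes viperin, a radical enzyme that turns CTP into a chain-terminating nucleotide, and Cmpk2 a mitochondrial nucleotide kinase encoded beside it. Rsad2 had 7.78, 5.73 and 3.31 FPKM in preconditioned RIRI, 2.56, 1.90 and 2.28 in normoxic RIRI, 12.8, 9.95 and 16.3 in preconditioned sham, and 8.77, 7.22 and 7.51 in normoxic sham. Cmpk2 had 5.91, 3.48 and 2.63 FPKM in preconditioned RIRI, 1.58, 0.947 and 1.10 in normoxic RIRI, 9.66, 6.10 and 13.0 in preconditioned sham, and 6.52, 5.75 and 6.03 in normoxic sham. Normoxic RIRI was the lowest group of both genes, with no overlap with any other group, and replicates 2 and 3 of preconditioned RIRI stayed below all sham kidneys.

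Irf7 encodes the transcription factor that drives the bulk of type I interferon genes and is itself induced by interferon. It had 37.9, 6.84 and 6.15 FPKM in preconditioned RIRI, 8.24, 6.32 and 6.02 in normoxic RIRI, 52.7, 21.9 and 34.1 in preconditioned sham, and 9.81, 7.44 and 8.76 in normoxic sham. All 3 preconditioned sham kidneys, at 21.9 FPKM or more, were above every normoxic kidney, at 9.81 FPKM or less. The preconditioned RIRI group was split between 1 kidney at the sham level of preconditioned mice and 2 at the normoxic RIRI level.

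Oasl2 encodes an oligoadenylate synthetase-like protein, and Ifi44 an interferon-induced cytoplasmic protein. Oasl2 had 10.1, 3.09 and 2.89 FPKM in preconditioned RIRI, 3.22, 2.78 and 2.81 in normoxic RIRI, 9.22, 3.57 and 10.8 in preconditioned sham, and 2.32, 2.20 and 2.30 in normoxic sham. Ifi44 had 6.23, 3.18 and 2.50 FPKM in preconditioned RIRI, 1.68, 0.641 and 2.48 in normoxic RIRI, 7.82, 4.57 and 8.13 in preconditioned sham, and 4.25, 3.62 and 4.86 in normoxic sham. Oasl2 was lowest in normoxic sham and Ifi44 in normoxic RIRI, and the lowest Ifi44 value of preconditioned RIRI (2.50 FPKM) lay just above the highest of normoxic RIRI (2.48 FPKM).

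By group mean, preconditioned sham was highest for all 9 genes. The mean of preconditioned RIRI came second for Ifit1, Ifit3, Isg15, Irf7, Oasl2 and Usp18, and below normoxic sham for Rsad2, Cmpk2 and Ifi44. Normoxic RIRI was lowest for 7 genes and normoxic sham for Isg15 and Oasl2. Preconditioned sham overlapped the next group for every gene except Rsad2, whose means were 13.0 ± 3.17 FPKM in preconditioned sham and 7.83 ± 0.822 FPKM in normoxic sham (SD, n = 3 each). The step down to the lowest group did not overlap for Ifit3, Rsad2, Cmpk2, Oasl2 and Ifi44, and did for the other 4.

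In normoxic mice, RIRI lowered some of the genes and left the test of the others below threshold. Of the 9, 4 fell in normoxic RIRI against normoxic sham and 0 rose, where 30.1% of all tested genes fell, 41.6% rose and 71.7% were called in either direction. Cmpk2 averaged 1.21 ± 0.333 FPKM in normoxic RIRI and 6.10 ± 0.393 in normoxic sham kidneys (SD, n = 3 each), a log2 fold change of -1.69 ± 0.25 (SE, limma adjusted p = 7.19e-05). Rsad2 averaged 2.25 ± 0.334 FPKM against 7.83 ± 0.822 in normoxic sham, a log2 fold change of -1.45 ± 0.23 (limma adjusted p = 0.000109). On the FPKM + 1 scale these were drops of 3.23-fold for Cmpk2 and 2.72-fold for Rsad2, with no overlap between the groups. Ifi44 fell by 1.07 on the log2 scale (limma adjusted p = 0.00754), with means of 1.6 ± 0.921 FPKM in normoxic RIRI and 4.24 ± 0.620 in normoxic sham. Ifit3 fell by 0.91 (limma adjusted p = 0.0489), with 4.05 ± 0.808 FPKM in normoxic RIRI and 8.39 ± 0.0847 in normoxic sham, but that call was lost in 11 of 21 alternatives, at adjusted p from 0.0503 to 0.137, although its groups do not overlap.

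The other 5 members did not pass in that comparison, with log2 fold changes of -0.30 for Irf7, -0.25 for Ifit1, -0.25 for Usp18, 0.26 for Oasl2 and 0.27 for Isg15 (limma adjusted p from 0.557 to 0.678). Oasl2 was nevertheless higher in all 3 normoxic RIRI kidneys than in all 3 normoxic sham kidneys, 2.94 ± 0.247 against 2.28 ± 0.0641 FPKM, and passed when only these 2 groups were fitted (adjusted p = 0.025). The groups did not overlap for 1 member that was higher and 4 that were lower, where 42.9% and 31.4% of all tested genes did so. The median log2 fold change was -0.30 over the 9 members and 0.10 over all tested genes.

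Between the injured groups, 4 members rose in preconditioned RIRI against normoxic RIRI and 0 fell, where 24.7% of all tested genes rose, 17.4% fell and 42.1% were called in either direction. They were the same 4 genes that fell with injury in normoxic mice. Both comparisons use the normoxic RIRI libraries, so the 2 sets of values are not independent. Ifit3 averaged 14.4 ± 7.48 FPKM in preconditioned RIRI and 4.05 ± 0.808 in normoxic RIRI (SD, n = 3 each), a log2 fold change of 1.52 ± 0.38 (SE, limma adjusted p = 0.00809). Cmpk2 averaged 4.01 ± 1.71 FPKM in preconditioned RIRI and 1.21 ± 0.333 in normoxic RIRI, at 1.14 ± 0.25 (adjusted p = 0.00403), and Rsad2 averaged 5.60 ± 2.24 and 2.25 ± 0.334 FPKM, at 0.97 ± 0.23 (adjusted p = 0.00539). Ifi44 was at 0.93 ± 0.31 (adjusted p = 0.0294), with 3.97 ± 1.99 FPKM in preconditioned RIRI and 1.6 ± 0.921 in normoxic RIRI. Groups did not overlap for these 4 members, where 27.8% of all tested genes were higher and 19.9% lower without overlap.

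Preconditioned RIRI replicate 1 weighed unequally on these values. Without it, Ifit3 was at 1.15 (limma adjusted p = 0.0294), Cmpk2 at 0.88 (0.0131) and Rsad2 at 0.74 (0.0178), so that 3 of the 4 calls remained, and Ifi44 was at 0.62 (0.109). The call of Ifi44 was also lost without normoxic RIRI replicate 2, at 0.63 (0.119), without the filter on low values (0.0818) and with only these 2 groups fitted (0.0732). The other 5 members had log2 fold changes of 0.51 to 0.73 with all libraries (adjusted p from 0.278 to 0.377), and without replicate 1 these were -0.06 for Irf7 and Usp18, 0.02 for Oasl2, 0.03 for Isg15 and less than 0.01 in size for Ifit1. The members' median was accordingly 0.73 with all libraries and 0.03 without replicate 1, beside 0.06 over all tested genes. Neutrophil markers, 9 genes that all rose with injury in normoxic mice (median log2 fold change 2.13) and all fell in preconditioned RIRI against normoxic RIRI (median -1.70), also differed between these kidneys. The summed level of the 12 neutrophil genes listed was 114.0, 24.2 and 47.6 FPKM in preconditioned RIRI replicates 1, 2 and 3, against 138.0, 306.0 and 214.0 FPKM in normoxic RIRI, so replicate 1 was the highest of its group here too. Their part in the members' levels was not tested.

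**Figure D2:**
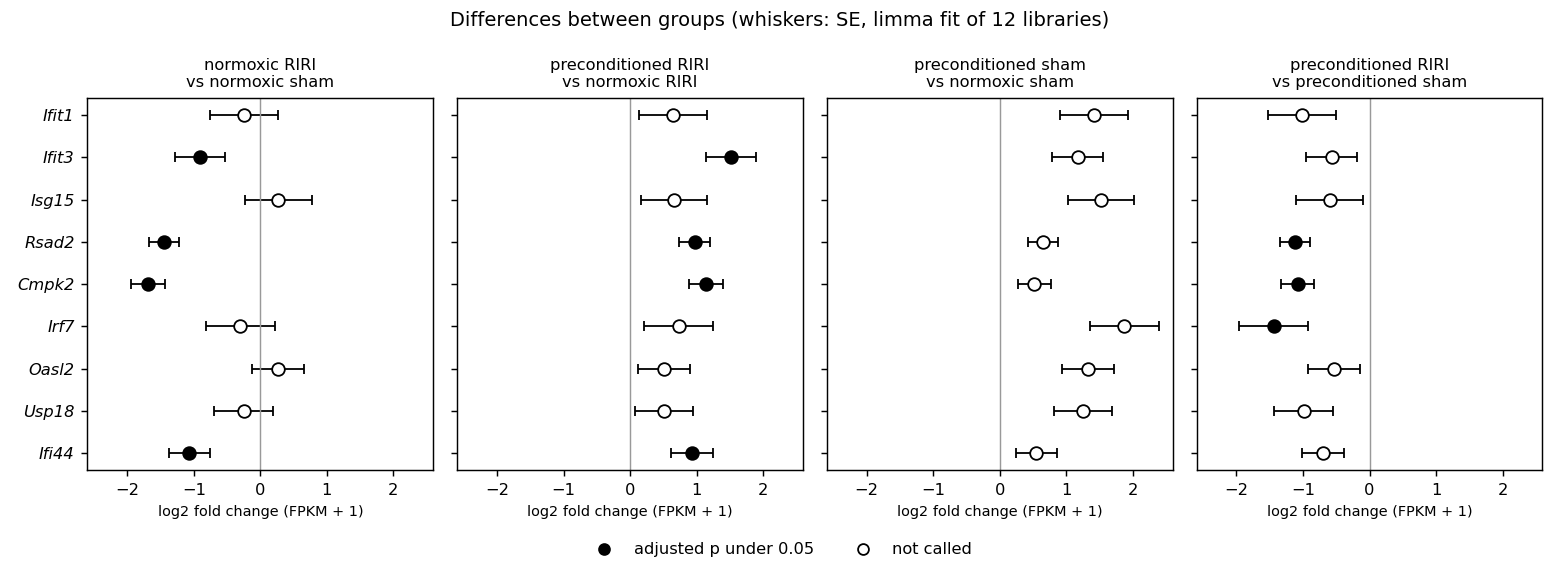
Log2 fold change of each member on the FPKM + 1 scale (horizontal axis) with whiskers of 1 SE from the limma fit of 12 libraries, one panel per comparison, with filled circles for an adjusted p under 0.05. Ifit3, Rsad2, Cmpk2 and Ifi44 are filled on the negative side for normoxic RIRI against normoxic sham and on the positive side for preconditioned RIRI against normoxic RIRI, and no circle is filled for preconditioned sham against normoxic sham.

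Hypoxia without injury gave higher mean levels of all 9 members and no call. In preconditioned sham against normoxic sham 0 of 9 members were called, where 0.421% of all tested genes (52 genes) were called in either direction, 0.186% as higher and 0.235% as lower. All 9 values were positive, and 7 of 9 had an unadjusted p under 0.05, as had 1726 of 12357 genes overall. limma voom on the recovered reads also called 0 members. The log2 fold changes were 1.87 ± 0.52 for Irf7 (limma adjusted p = 0.166), 1.52 ± 0.50 for Isg15 (0.224), 1.42 ± 0.51 for Ifit1 (0.251), 1.32 ± 0.39 for Oasl2 (0.178), 1.25 ± 0.44 for Usp18 (0.250) and 1.17 ± 0.38 for Ifit3 (0.221). Rsad2, Ifi44 and Cmpk2 were lower in size, at 0.65, 0.55 and 0.52 (adjusted p from 0.242 to 0.453). The median was 1.25, beside 0.06 over all tested genes.

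The 3 preconditioned sham kidneys were above the 3 normoxic sham kidneys for 7 members, where 23.0% of all tested genes were higher and 6.36% lower without overlap, and for Cmpk2 and Ifi44 replicate 2 fell within the normoxic sham range. Irf7 averaged 36.2 ± 15.5 FPKM in preconditioned sham and 8.67 ± 1.18 FPKM in normoxic sham (SD, n = 3 each). It was called when only these 2 groups were fitted (1.87, limma adjusted p = 0.0202) and when preconditioned RIRI replicate 1, whose spread enters the shared error, was left out (adjusted p = 0.00958). Isg15 averaged 22.3 ± 13.1 FPKM in preconditioned sham and 6.16 ± 0.521 in normoxic sham, and its adjusted p was 0.104 without that library. Preconditioned sham replicate 2 had 9.20 FPKM of Isg15 where replicates 1 and 3 had 22.4 and 35.4. No leukocyte list was called in this comparison: the summed neutrophil markers were at 4.50, 3.41 and 1.80 FPKM in preconditioned sham replicates 1, 2 and 3, against 2.46, 5.62 and 15.3 FPKM in normoxic sham. Those of monocytes and macrophages were at 89.7, 88.8 and 91.5 FPKM in preconditioned sham, against 89.3, 97.2 and 99.5 FPKM in normoxic sham. The members were high in preconditioned sham replicates 1 and 3, and the part of these cell types in that was not tested. Red blood cell genes, 5 listed with globin genes among them, did differ between these groups: they summed to 1660, 1680 and 2040 FPKM in preconditioned sham, against 807, 691 and 963 FPKM in normoxic sham. All 5 were higher without overlap (median 1.18), limma called 0, and 5 had an unadjusted p under 0.05. In preconditioned RIRI they summed to 477, 2260 and 1280 FPKM, where replicate 1, high in the members, was lowest, against 707, 952 and 484 FPKM in normoxic RIRI. Between the RIRI groups limma called 0 of the 5 (median 0.70), where 24.7% of all tested genes rose. Without preconditioned RIRI replicate 1 it called 5 higher (median 1.34). With any 1 library left out, 3837 to 5414 of all tested genes were called there. The part of blood in the members' levels was not tested.

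In preconditioned mice, 3 members fell in preconditioned RIRI against preconditioned sham and 0 rose, where 19.4% of all tested genes fell, 33.0% rose and 52.4% were called in either direction. Rsad2 averaged 5.60 ± 2.24 FPKM in preconditioned RIRI and 13.0 ± 3.17 in preconditioned sham, a log2 fold change of -1.12 ± 0.23 (SE, limma adjusted p = 0.00142, n = 3 each). Cmpk2 was at -1.08 ± 0.25 (adjusted p = 0.00349), with 4.01 ± 1.71 FPKM in preconditioned RIRI and 9.59 ± 3.45 in preconditioned sham. These 2 had no overlap between groups, where 23.1% of all tested genes were lower and 40.2% higher without overlap. Irf7 fell by 1.44 on the log2 scale (adjusted p = 0.0361), but its groups overlapped through preconditioned RIRI replicate 1, at 37.9 FPKM against 21.9 to 52.7 FPKM in preconditioned sham. The call of Irf7 was lost without preconditioned RIRI replicate 2 (-1.07, adjusted p = 0.128) or 3 (-1.01, 0.148) and without preconditioned sham replicate 1 (-1.13, 0.129) or 3 (-1.44, 0.0754), and also without the filter (0.0951) and with only these 2 groups fitted (0.0934).

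Without preconditioned RIRI replicate 1, 8 members fell in that comparison, all but Ifit3 (-0.93, limma adjusted p = 0.0593), with Irf7 at -2.23 (0.000119), Ifit1 at -1.66 (0.00588) and Usp18 at -1.56 (0.00344). Without preconditioned sham replicate 2, 8 fell as well, all but Isg15 (-1.10, adjusted p = 0.0826). The count therefore ran from 2 to 8 over the 12 fits that each left out 1 library. Over the same fits, 5551 to 6886 of all tested genes were called in either direction. With all libraries the median was -0.99 over the members, beside 0.10 over all tested genes, and without preconditioned RIRI replicate 1 the members' median was -1.34.

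The injury effect in preconditioned mice less the one in normoxic mice was called for 0 of 9 members, where 23.9% of all tested genes were called, 11.3% as positive and 12.6% as negative, and 0 members had an unadjusted p under 0.05. limma voom also called 0. Values were positive for Cmpk2 (0.61 ± 0.35, limma adjusted p = 0.228), Ifi44 (0.38), Ifit3 (0.34) and Rsad2 (0.32), and negative for Irf7 (-1.13 ± 0.74, adjusted p = 0.283), Isg15 (-0.86), Oasl2 (-0.81), Ifit1 (-0.77) and Usp18 (-0.74). Without preconditioned RIRI replicate 1, Irf7 was called at -1.93 (adjusted p = 0.00567) and Oasl2 at -1.30 (0.0417), and the value of Ifit3 was -0.02.

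The members followed each other across libraries. Over the 12 libraries the Pearson correlation of log2(FPKM + 1) between 2 members ran from 0.56 to 0.99 over the 36 pairs, with a median of 0.855. Rsad2 and Cmpk2, neighbours on chromosome 12, were at 0.99, as were Ifit1 and Usp18, which lie on different chromosomes, and Isg15 and Oasl2 were at 0.98. The lowest correlations, 0.56 to 0.58, joined Isg15 or Oasl2 with Rsad2 or Cmpk2. After the group means were taken out, the same pairs were between 0.82 and 0.95, and all 36 pairs ran from 0.71 to 0.99 with a median of 0.905. In the preconditioned groups, replicate 1 of RIRI and replicates 1 and 3 of sham were above the other replicates for each of the 9 members. The normoxic groups also had a largely common order, with a smaller spread (median SD of the members 0.21 in normoxic RIRI and 0.13 in normoxic sham). In normoxic sham replicate 2 was lowest for each of the 9 members, and replicate 1 was highest for all but Ifi44. In normoxic RIRI replicate 2 was lowest for all but Irf7, and replicate 1 was highest for all but Isg15 and Ifi44. These are descriptions over libraries that share groups, with 3 libraries per group.

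**Figure D3:**
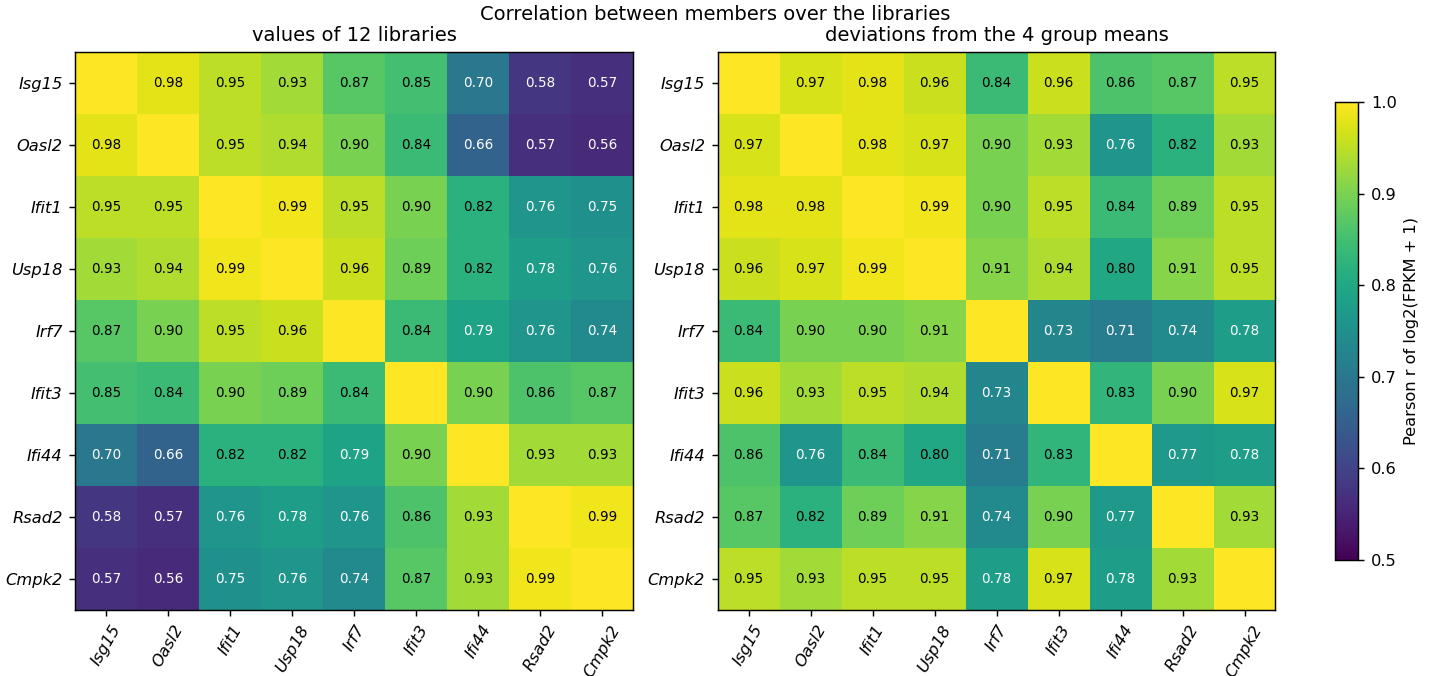
Pearson correlation of log2(FPKM + 1) between the 9 members over 12 libraries, left from the values and right from the deviations from the 4 group means, with the colour scale starting at 0.5. On the left Isg15 and Oasl2 are at 0.56 to 0.58 with Rsad2 and Cmpk2, and on the right the same pairs are at 0.82 to 0.95.

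Among the genes whose pattern was most like the members' mean standardized level over the 12 libraries were Trim12c (Pearson r = 0.98), Gbp3 and Uba7 (0.97 each), and Rtp4, Sp110, Ifi47 and Ifi27l2a (0.96 each). Ifi27l2a had 24.1, 9.09 and 5.16 FPKM in preconditioned RIRI, 7.80, 4.57 and 5.10 in normoxic RIRI, 39.9, 27.1 and 52.9 in preconditioned sham, and 12.0, 10.8 and 12.3 in normoxic sham. Rtp4 had 6.58, 1.81 and 1.51 FPKM in preconditioned RIRI, 2.12, 1.41 and 1.62 in normoxic RIRI, 6.65, 2.57 and 7.40 in preconditioned sham, and 2.04, 1.93 and 1.91 in normoxic sham. Ifi27l2a thus had the Irf7 form, with all preconditioned sham kidneys high, and Rtp4 the Isg15 form. On deviations from group means the 8 most alike were Oas1a and Oas1g (0.99 each), Gbp3, Rtp4, Lgals9 and Xaf1 (0.98 each), and Ifi211 and Trim12c (0.97 each), of which Gbp3, Rtp4 and Trim12c were also named above. Without preconditioned RIRI replicate 1, Trim12c, Gbp3, Uba7, Rtp4 and Ifi27l2a were again among the 8 most alike.

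Other type I interferon-stimulated genes showed a mixed picture with injury and the same libraries on top. Of 66 such genes with a row, 57 were tested. In normoxic RIRI against normoxic sham 11 rose and 7 fell (median log2 fold change 0.05), where 41.6% of all tested genes rose and 30.1% fell. Those that rose included Shisa5 (0.54 ± 0.07, SE, limma adjusted p = 4e-05) and Isg20 (1.07 ± 0.16), an exonuclease, and those that fell Samd9l (-1.83 ± 0.20, adjusted p = 6.73e-06), a restriction factor, and Slfn5 (-0.82 ± 0.16). In preconditioned RIRI against normoxic RIRI 8 rose, among them Samd9l (1.06 ± 0.20, adjusted p = 0.00179) and Ifit3b (1.42 ± 0.33, adjusted p = 0.00525), and 1 fell, Shisa5 (-0.22 ± 0.07), with a median of 0.30. Of all tested genes 24.7% rose and 17.4% fell between these groups. In preconditioned sham against normoxic sham 0 were called, 43 of 57 had an unadjusted p under 0.05, 36 were higher without overlap, and the median was 0.60. Over all tested genes 0.421% were called, 1726 of 12357 had such an unadjusted p, and 23.0% were higher without overlap. In preconditioned RIRI against preconditioned sham 3 rose and 9 fell (median -0.20), where 33.0% of all tested genes rose and 19.4% fell. Among those that fell were Ifi27l2a at -1.77 ± 0.40 (limma adjusted p = 0.0032) and Sp100 at -0.99 ± 0.20. Without preconditioned RIRI replicate 1, an alternative chosen after the data were seen for these lists, 55 genes were tested. Then 4 rose and 2 fell between the RIRI groups (median 0.09), 3 rose between the sham groups, and 22 fell and 1 rose in preconditioned RIRI against preconditioned sham. Over the fits that each left out 1 library, 3837 to 5414 of all tested genes were called between the RIRI groups. Between the sham groups 22 to 80 were called, and 5551 to 6886 in preconditioned RIRI against preconditioned sham.

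Samd9l had 24.5, 23.5 and 13.1 FPKM in preconditioned RIRI, 10.2, 7.0 and 9.86 in normoxic RIRI, 40.8, 39.0 and 36.4 in preconditioned sham, and 29.8, 36.7 and 36.5 in normoxic sham. It had the order of Rsad2 and Cmpk2 among the RIRI and normoxic sham groups, but its preconditioned sham kidneys did not stand apart in the way the members' did (0.17 ± 0.20, limma adjusted p = 0.755). Among targets better known for interferon gamma, 15 of 19 genes with a row were tested. Of these 6 fell and 0 rose in normoxic RIRI against normoxic sham (median -0.56), where 30.1% of all tested genes fell and 41.6% rose. Among the 6 were the guanylate-binding protein genes Gbp5 (-0.67 ± 0.16, limma adjusted p = 0.00316) and Gbp6 and the GTPase genes Irgm2 and Igtp. In preconditioned RIRI against normoxic RIRI 7 rose and 0 fell (median 0.57), where 24.7% of all tested genes rose and 17.4% fell. The 7 were led by Gbp7 (1.16 ± 0.29, limma adjusted p = 0.00738) and the transcription factor gene Irf1 (0.40 ± 0.11, adjusted p = 0.0116). In preconditioned sham against normoxic sham 0 were called and 4 had an unadjusted p under 0.05 (median 0.37), where 0.421% of all tested genes were called. In preconditioned RIRI against preconditioned sham 1 rose and 3 fell (median -0.51), where 33.0% of all tested genes rose and 19.4% fell. Without preconditioned RIRI replicate 1, 2 rose and 0 fell between the RIRI groups (median 0.36), and 9 fell and 1 rose in preconditioned RIRI against preconditioned sham. With any 1 library left out, 3837 to 5414 of all tested genes were called in the first comparison and 5551 to 6886 in the second.

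**Figure D4:**
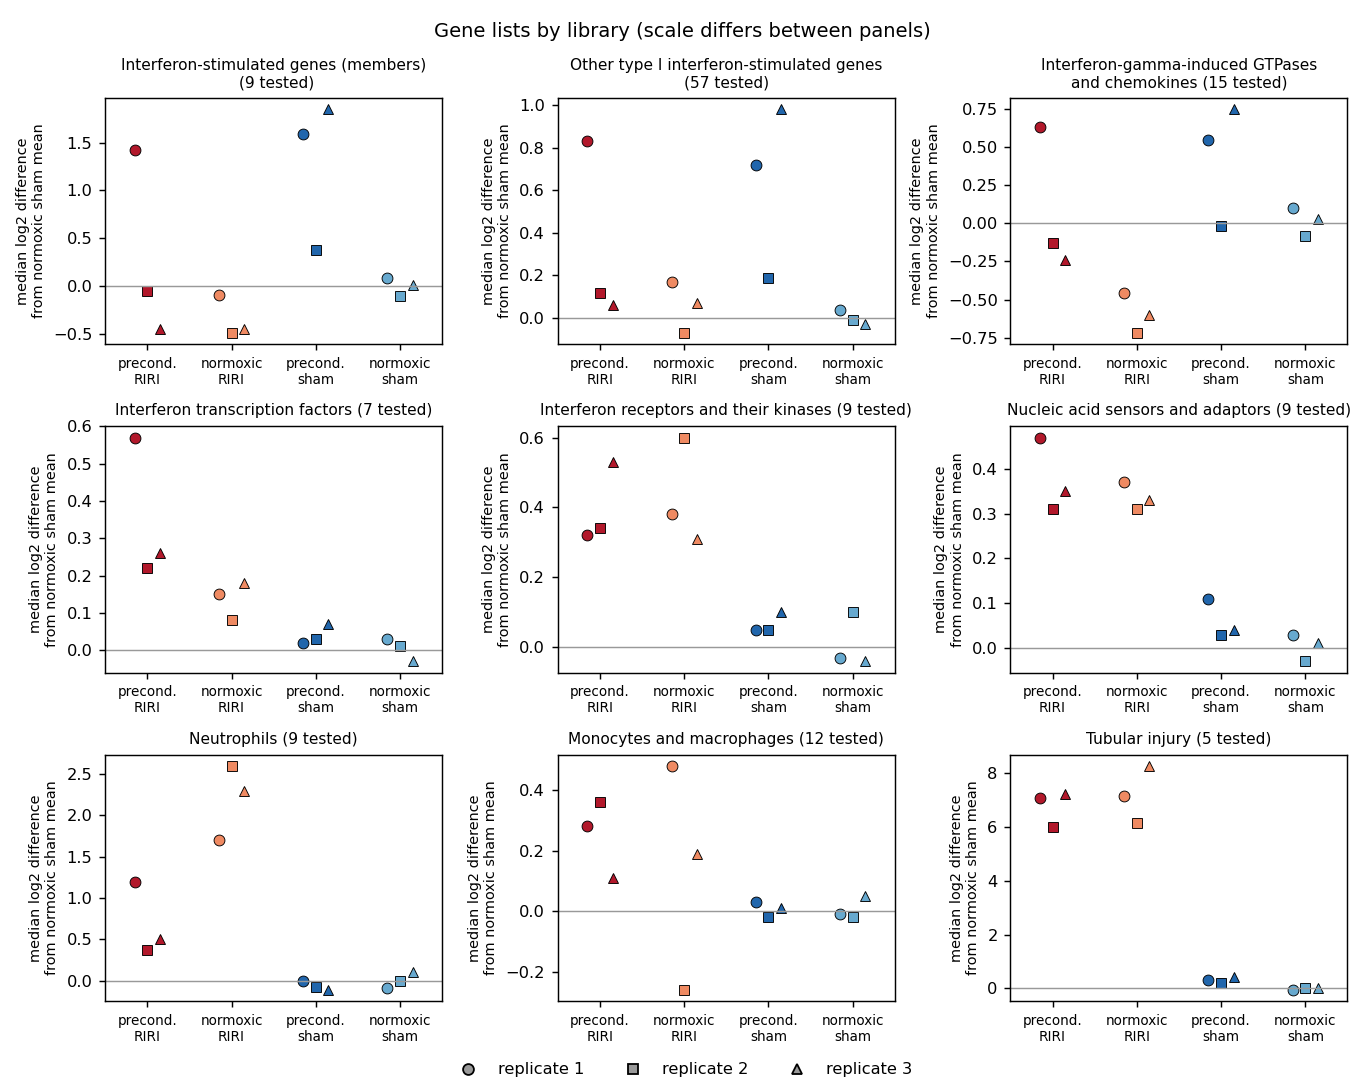
Median over the tested genes of a list of the log2(FPKM + 1) difference from the normoxic sham mean (vertical axis, scale differs between panels) in each of the 12 libraries by group (horizontal axis). Preconditioned RIRI replicate 1 and preconditioned sham replicates 1 and 3 are high in the members (1.42, 1.59 and 1.85), in the other type I genes (0.83, 0.72 and 0.98) and in the interferon gamma targets (0.63, 0.55 and 0.75), whereas receptors, sensors and tubular injury genes separate RIRI from sham libraries.

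Interferon genes themselves were at the floor of the table. Of 21 ligand genes listed, 5 had a row (Ifnb1, Ifna2, Ifnk, Ifnz and Ifng), none passed the filter, and no library exceeded 0.0694 FPKM of any of them. Ifnb1 was listed at 0 in 11 of 12 libraries and Ifng in 9 of 12, too few reads to compare groups. Of 9 receptor and kinase genes, 5 rose and 0 fell in normoxic RIRI against normoxic sham, where 41.6% of all tested genes rose and 30.1% fell. The 5 were led by Ifngr2 (log2 fold change 1.78 ± 0.11, limma adjusted p = 5.85e-08) and Ifngr1 (1.25 ± 0.11). Ifngr2 had 37.4, 38.0 and 34.2 FPKM in normoxic RIRI, against 8.32, 11.5 and 10.2 FPKM in normoxic sham. These 2 subunits of the interferon gamma receptor fell in preconditioned RIRI against normoxic RIRI, by 0.56 and 0.46 on the log2 scale, the only receptor or kinase genes called there. The type I receptor gene Ifnar1 was at 0.74 ± 0.07 with injury in normoxic mice (adjusted p = 2.59e-06) and at -0.14 ± 0.07 between the RIRI groups (adjusted p = 0.131).

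Of 7 tested transcription factor genes of the pathway, 2 rose with injury in both normoxic and preconditioned mice, Irf8 and Irf3. Of all tested genes, 41.6% rose with injury in normoxic mice and 33.0% in preconditioned mice. Irf3, which encodes the factor that nucleic acid sensing activates to switch on interferon genes, had 33.4, 23.1 and 32.8 FPKM in normoxic RIRI, against 22.4, 20.3 and 22.7 FPKM in normoxic sham (log2 fold change 0.42 ± 0.12, limma adjusted p = 0.00974). It had 32.0, 28.8 and 32.5 FPKM in preconditioned RIRI, against 22.1, 22.3 and 19.5 FPKM in preconditioned sham (0.53 ± 0.12, adjusted p = 0.00386). The RIRI values of Irf3 lay above the sham values in both pairs without overlap, as did those of 42.9% and 40.2% of all tested genes. The Irf3 call in normoxic mice was lost under quantile normalization (limma adjusted p = 0.0512). Irf8, a factor of myeloid cells, was at 0.54 ± 0.11 in normoxic RIRI against normoxic sham (adjusted p = 0.000971) and at 0.56 ± 0.11 in preconditioned RIRI against preconditioned sham (adjusted p = 0.00146). Irf5 fell in preconditioned RIRI against preconditioned sham (-0.37 ± 0.09, adjusted p = 0.00462). Irf9 was not called in any comparison, and had 21.7 FPKM in preconditioned RIRI replicate 1 and 9.73 and 12.1 in replicates 2 and 3. Stat2 was not called in any comparison either.

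Of 9 tested nucleic acid sensors and adaptors, 5 rose and 0 fell in normoxic RIRI against normoxic sham, where 41.6% of all tested genes rose. Among the 5 were the adaptor genes Myd88 (1.27 ± 0.09, limma adjusted p = 1.46e-07) and Sting1 (2.23 ± 0.16, adjusted p = 2.49e-07). Traf3 and Myd88 fell in preconditioned RIRI against normoxic RIRI, by 0.39 and 0.26 on the log2 scale. The Myd88 call was lost in 7 of 21 alternatives (limma adjusted p from 0.0545 to 0.105), among them the fits without preconditioned RIRI replicate 1 or 2 and without any 1 of the normoxic RIRI replicates. Of 7 negative regulators, Socs3, Ptpn11 and Ptpn2 rose and Nlrx1 and Pias1 fell with injury in normoxic mice, and each was called in the opposite direction in preconditioned RIRI against normoxic RIRI, a comparison that shares the normoxic RIRI libraries with the first. Of all tested genes, 71.7% were called in either direction in the first comparison and 42.1% in the second. In the second comparison the Ptpn11 call was lost in 12 of 21 alternatives (limma adjusted p from 0.051 to 0.16) and the Pias1 call in 4 (0.0549 to 0.0919). Socs3, which encodes an inhibitor of JAK kinases, averaged 18.1 ± 2.99 FPKM in preconditioned RIRI, 35.3 ± 9.88 in normoxic RIRI, 1.31 ± 0.249 in preconditioned sham and 1.25 ± 0.287 in normoxic sham (SD, n = 3 each). In preconditioned sham against normoxic sham limma called 0 receptor, sensor or regulator genes, and 1 receptor or kinase, 1 sensor and 0 regulator genes had an unadjusted p under 0.05.

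Plasmacytoid dendritic cells are a main source of type I interferon in the body, and their defining markers Siglech and Ccr9 were at 0.0841 FPKM or below in every library. The summed level of the 8 listed markers of that cell type was 7.75 to 14.2 FPKM in preconditioned RIRI, 5.47 to 13.2 in normoxic RIRI, 7.88 to 12.1 in preconditioned sham and 10.3 to 14.9 in normoxic sham. Most of it came from Smim5, Ly6d and Cox6a2 (4.66, 4.71 and 1.2 of 12.0 FPKM in preconditioned sham replicate 1). With the defining markers this low, the sum cannot stand for the level of these cells. Of the 3 genes tested only Smim5 was called, lower in both RIRI groups than in their shams and higher in preconditioned RIRI than in normoxic RIRI. The summed level of 11 T and NK cell markers was at 1.17, 2.22 and 1.32 FPKM in preconditioned RIRI, 1.59, 0.485 and 1.17 in normoxic RIRI, 3.40, 5.11 and 2.14 in preconditioned sham and 4.18, 3.80 and 4.34 in normoxic sham, and none of them passed the filter. Preconditioned RIRI replicate 1 and preconditioned sham replicate 3, both high in the members, had the lowest T and NK cell sums of their groups, and preconditioned sham replicate 1, also high in the members, the middle one. Monocyte and macrophage markers summed to 112.0, 124.0 and 113.0 FPKM in preconditioned RIRI, against 152.0, 108.0 and 141.0 in normoxic RIRI. Between these groups 2 of 12 rose (Cx3cr1 and Csf1r) and 2 fell (Chil3 and Itgam), where 24.7% of all tested genes rose and 17.4% fell. Proximal tubule markers summed to 1900 to 2330 FPKM in preconditioned RIRI, against 1680 to 2030 in normoxic RIRI, 5420 to 5590 in preconditioned sham and 5330 to 5840 in normoxic sham. The part of these cell types in the members' levels was not tested.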

How the data were processed

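Kidney RNA libraries (VAHTS Universal V10) were run on a DNBSEQ-T7 sequencer, per the labels' protocols, and mm10, HTSeq and DESeq2 are named in the submitters' processing notes without versions or roles. Aligner and gene annotation: not given in the sources used here. As values the authors deposited FPKM values, 1 row per gene symbol and 1 column per library, already divided by gene length and depth, so that a change in a few abundant genes moves all other values a little. Whole reads were recovered from the steps of the FPKM values for 25553 of 25553 genes (tolerance 0.001 reads), 33096854 to 35707662 per library. No 2 of the 12 libraries shared equal values, so each counted as 1 replicate. The members and lists were chosen with earlier results of these data known. All 9 members are named whatever their values; of other lists, up to 4 called genes with the smallest adjusted p are named in a comparison, and further genes were named after their values were seen. Results of a further pathway gene are not reported here.

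The 12357 genes that reached FPKM 1 in 3 or more libraries were tested in limma 3.58.1 (R 4.3.3) on log2(FPKM + 1), as 1 fit of 4 group means with a mean-variance trend and Benjamini-Hochberg adjustment over all tested genes. The fit was tested on simulated data. Replicate numbers were not treated as pairs in the main fit. Alternatives were median-ratio and quantile scaling, a stricter filter at FPKM 5 or none, a smaller pseudocount (0.1), only the groups compared, no trend, a replicate block, voom on recovered reads and leaving out each library. Near copies were found with BLAST 2.17.0, at 95% identity or more over at least 200 bases. Promoter sequences and coordinates are RefSeq's on GRCm38.p6. Mx1, Mx2 and Oas1b were not analysed here.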

Additional observations from a re-analysis of the deposited data

Results flagged for a closer look

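Among genes of the interferon pathway other than the members, 7 had an injury effect that differed between preconditioned and normoxic mice by the limma test of the difference itself (effect in preconditioned mice minus effect in normoxic mice, log2 scale). Of all tested genes, 23.9% were called for this difference. The genes searched were 57 other type I genes, 15 interferon gamma targets and 9 receptor or kinase genes. The lists of transcription factors, sensors and adaptors, and negative regulators added 7, 9 and 7 tested genes. The difference was -0.57 ± 0.15 for Ifngr2 (SE, limma adjusted p = 0.0199) and -0.55 ± 0.16 for Ifngr1 (0.0265), the subunits of the interferon gamma receptor. It was -0.94 ± 0.27 for Socs3 (0.0264), -0.36 ± 0.12 for Ptpn11 (0.0452) and 0.52 ± 0.15 for Nlrx1 (0.0263), all negative regulators. Among interferon-stimulated genes it was 0.89 ± 0.29 for Samd9l (0.043) and -0.32 ± 0.11 for Shisa5 (0.0495). Each call except that of Ifngr2 was lost in several alternatives, among them the fit without the filter on low values (adjusted p from 0.059 to 0.11).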

How the results depend on the processing

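Each member and comparison was recomputed under 21 alternatives, 20 for the difference between injury effects, which cannot be fitted on only the groups compared. Of 936 values 891 kept direction and side of the threshold, 20 passed it newly, 21 no longer did, and 4 changed sign. These were Irf7 and Usp18 in preconditioned RIRI against normoxic RIRI without preconditioned RIRI replicate 1 (both -0.06; up to 1.16 and 0.93 with another library left out) and the difference between injury effects of Ifit3, at -0.02 without that library and -0.12 without preconditioned sham replicate 2 (up to 0.71). Fitting only the groups compared gave 1 higher member in normoxic RIRI against normoxic sham and 1 in preconditioned sham against normoxic sham, with 375 genes called in all there in place of 52 and 3261 in place of 5203 between the RIRI groups. A pseudocount of 0.1 gave 31 called genes in preconditioned sham against normoxic sham. Leaving out 1 library at a time gave 0 to 1 higher members and 22 to 80 called genes in preconditioned sham against normoxic sham. In preconditioned RIRI against preconditioned sham it gave 2 to 8 lower members and 5551 to 6886 called genes. For the difference between injury effects it gave 0 to 2 lower members and 2064 to 3513 called genes. The members' median in preconditioned RIRI against normoxic RIRI ranged from 0.03 to 1.15. The causes were not tested, beyond the libraries left out.

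The replicate block gave 5 lower members (Usp18 and Ifi44 besides) in place of 3 in preconditioned RIRI against preconditioned sham and changed no other count of members by over 1.5 times. Over all tested genes, the correlations of deviations over 18 same-numbered pairs ran from -0.25 to 0.17, with 4 over 0.1. They ran from -0.16 to 0.34 over 36 other pairs, with 3 over 0.1. Among the members, replicate 2 was lowest for every gene in both sham groups and for all but Irf7 in normoxic RIRI. In preconditioned RIRI replicate 3 was lowest for every member. These values do not settle whether samples of the same number belong together. limma voom on the recovered reads called 5337 genes between the RIRI groups, 8861 in normoxic RIRI against normoxic sham and 60 in preconditioned sham against normoxic sham. Differences as large as 1.87 on the log2 scale (Irf7 in preconditioned sham against normoxic sham) missed the threshold with 3 kidneys a group.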
